A study of Triticum aestivum with 34 samples.

Results

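The genes described here encode sugar transporters of 3 families in wheat spikelets: the SWEET facilitators, the sugar transport proteins (STP) and the ERD6-like transporters. Members were taken by the wording of the deposited gene descriptions, which had to name a numbered SWEET, a sugar transport protein, a sugar or monosaccharide transporter or an ERD6-like transporter, and not a sucrose transporter. They also had to reach 1 in at least 2 of the 34 libraries in FPKM, the deposited measure of fragments scaled for transcript length and library total. Of 162233 gene models in the table, 192 matched the wording and 118 of these passed the level. The members were 76 of 102 SWEET models, 20 of 49 STP models, 17 of 36 ERD6-like models and all 5 UDP-sugar transporters, which move nucleotide sugars and were taken in by the wording. The remaining 74 models stayed below the level and were not tested. Nearest to the limit, 6 models had 1 library at or above 1, with a second-highest FPKM of 0.79 to 0.99, and 5 members had exactly 2 such libraries, with a second-highest FPKM of 1.04 to 1.37. The level was reached in both positions by 108 members, in central spikelets alone by 9 and in basal spikelets alone by 1.

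SWEET proteins are uniporters that let sugars move down their gradient across a membrane, in either direction. In Arabidopsis they fall into 4 clades, of which clades I and II carry mostly hexoses, clade III mostly sucrose, and clade IV fructose across the vacuole membrane. STP proteins import hexoses into the cell together with protons, so they take up what cell wall invertase releases from sucrose outside the cell. ERD6-like proteins, named for a gene induced early by dehydration in Arabidopsis, include vacuolar hexose exporters there. The ear of wheat receives its carbon largely as sucrose through the phloem, and grain filling in maize and rice needs SWEET4, SWEET11 and SWEET15 proteins.

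RNA was sequenced from untreated plants of the genotype shimai22. Basal spikelets, from the bottom of the ear, and central spikelets were sampled 6, 9, 12, 15, 21 and 27 days past terminal spikelet formation, at which the ear has laid down its last spikelet. Genotype and lack of treatment were shared by all 12 groups, so position and day were the labelled differences. There were 17 basal and 17 central libraries, 3 in each group except for 2 at basal day 15 and 2 at central day 21. The labels give no number of plants behind a library and do not say that replicates were separate plants, so p-values measure the spread between these samples, which may be technical. Library totals were 95144712 to 126139684 estimated counts. Flower identity was checked with 29 MADS-box models, whose summed FPKM lay between 440.8 and 1170.7 in the 34 libraries. These models differed between positions, with 19 lower and 5 higher in basal spikelets in the mean of 6 days, and on day 15 their sums were 602.3 to 608.5 in basal and 749.2 to 804.0 in central libraries. Whole spikelets were sampled, so fewer cells of a type and less RNA per cell cannot be told apart.

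Over the mean of the 6 days, 37 members were lower and 11 higher in basal than in central spikelets. That is 40.7% of the members, against 33.5% of all 71963 models tested, of which 17.5% were lower and 16% higher. The median difference of the members was -0.50 on the log2 scale, or -0.48 with genes at 0 in a group set to their bound, against 0.00 over all tested models. A member was called when edgeR's quasi-likelihood test gave it an adjusted p under 0.05, with Benjamini-Hochberg adjustment across every model tested. By family, 22 SWEET, 6 STP and 9 ERD6-like members were lower, and 4 SWEET, 4 STP and 3 ERD6-like members were higher. The 5 UDP-sugar transporters differed by -0.12 to 0.09 in the mean and were not called. On the scale log2(FPKM + 1), limma called 61 members lower and 9 higher.

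The difference was concentrated in the middle of the series. On day 6, 19 members were lower and 6 higher in basal spikelets, against 9.2% and 7.91% of all tested models. On day 9, 30 were lower and 16 higher, with a background of 18.2% and 18.1%. On day 12, 41 members were lower and 10 higher, against 14.5% and 13.6%, and on day 15, 40 were lower and 11 higher, against 13.8% and 8.89%. On day 21 the counts were 13 lower and 11 higher, with 6.88% and 10.2% of all models, and on day 27 they were 11 lower and 13 higher, with 10.4% and 11.3%. Other settings moved some of these counts: DESeq2 called 30 members lower on day 6, 25 on day 15 and 4 on day 21, and limma on log2(FPKM + 1) called 21 lower on day 21 and 21 on day 27. A fit of day 27 alone called 3 higher and 4 lower. Without basal day 15 replicate 1 the day 15 count of higher members fell to 5. Leaving out single libraries of day 21 gave 5 to 11 higher and 6 to 16 lower members on that day. Among the 108 members that reached the level in both positions, 38 were lower on day 12 and 37 on day 15.

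**Figure D1:**
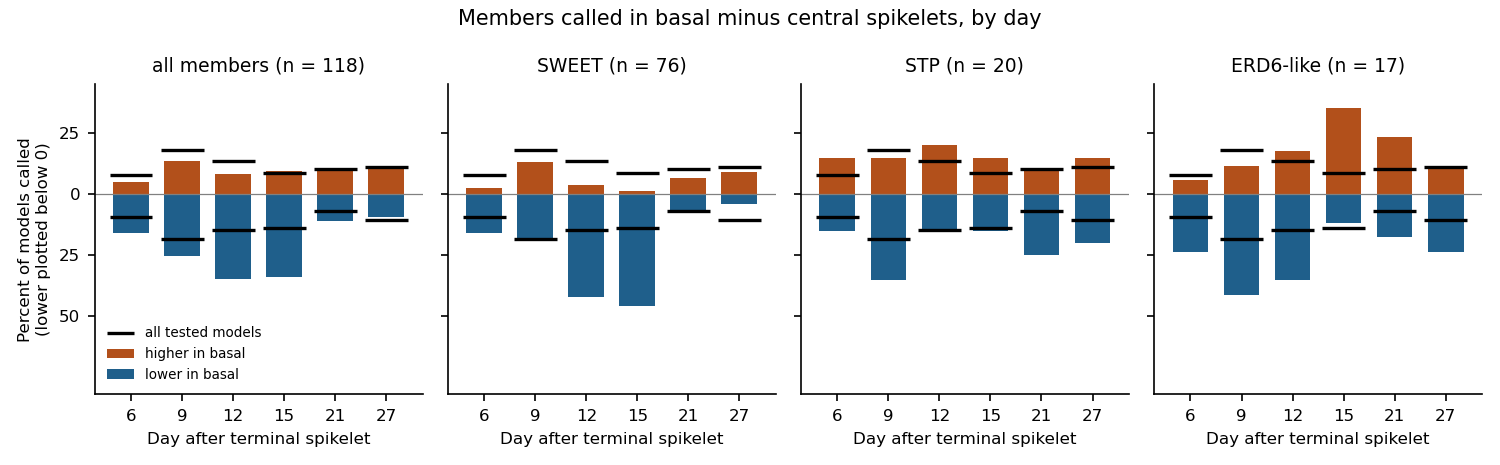
Share of members called on each day, in percent of the members of each panel (vertical axis), by day after the terminal spikelet stage (horizontal axis), for all members and for the SWEET, STP and ERD6-like families. Bars above 0 are members higher in basal spikelets, bars below 0 are members lower there, and black lines mark the same shares over all 71963 tested models. The SWEET bars reach furthest below the lines on days 12 and 15, where 32 and 35 of 76 SWEET members were lower.

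Averaged over both positions, more members rose than fell until day 21. From day 6 to day 9, 36 members rose and 6 fell, while 23.2% of all tested models rose and 24.2% fell, together 47.4%. From day 9 to day 12, 39 rose and 7 fell, against 24.3% and 18.7% of all models, together 43%. From day 12 to day 15, 55 rose and 3 fell, against 26.7% and 21.2%, together 47.9%, and limma on log2(FPKM + 1) gave 7 that fell. From day 15 to day 21, 55 rose and 30 fell, against 29.3% and 29.2%, together 58.5%. The last step, to day 27, was nearly even, with 43 members higher and 41 lower, against 32.5% and 30.3%, together 62.8%.

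SWEET members made up most of this: 32 were lower and 3 higher on day 12, and 35 were lower and 1 higher on day 15. In 37 SWEET members on day 12 and 41 on day 15, every basal library lay below every central one, which includes low members that were not called. The share of all tested models set apart in this way was not counted. With only 2 basal libraries on day 15, full separation is easier there, so the counts of the days cannot be compared. On days 21 and 27 the SWEET counts were 5 lower with 5 higher and 3 lower with 7 higher. ERD6-like members went another way on day 15, when 6 were higher and 2 lower, after 7 lower and 2 higher on day 9. STP members showed no such excess on days 12 and 15, with 3 lower and 4 higher and then 3 lower and 3 higher. In all, 26 members were called in both directions on different days, 57 were called lower at least once and never higher, 12 higher and never lower, and 23 on no day. No member was called in the same direction on all 6 days. These counts over days were not made for all tested models, so they describe the members and cannot be called particular to them. The difference between positions changed over days in 72 of 118 members, against 56.7% of all tested models.

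**Figure D2:**
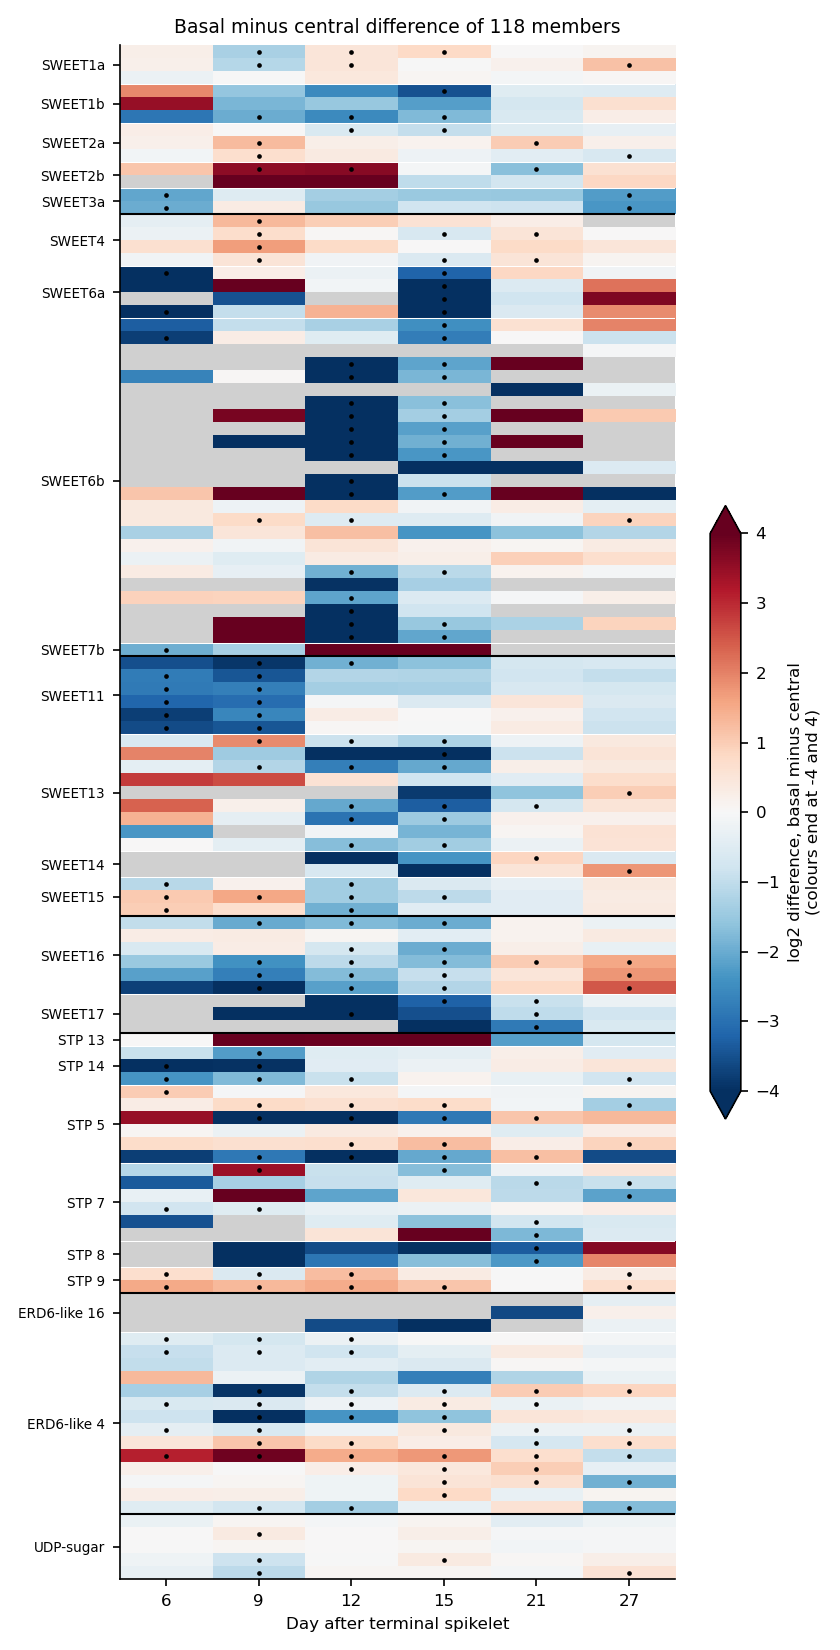
Basal minus central log2 difference (colour, limited to -4 and 4) for the 118 members (vertical axis) on the 6 days (horizontal axis), with black lines between SWEET clades and families, dots where the adjusted p was under 0.05, and grey where all libraries of both groups were at 0. Many SWEET6b, SWEET13 and SWEET16 members are lower in basal spikelets on days 12 and 15, some of them also on day 9. SWEET11 members are lower mainly on days 6 and 9. Several members of clade IV and of the STP and ERD6-like families change sign by day 21.

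SWEET levels rose through the series in both positions. Summed over the 76 SWEET members, FPKM was 89.0 ± 8.2 in basal and 100.2 ± 7.1 in central spikelets on day 6 (SD, n = 3 each). By day 27 the sums were 846.5 ± 80 and 788.2 ± 130. The widest gap between them was on day 15, with 287.8 and 264.2 in the basal libraries against 477.1, 420.9 and 352.7 in the central ones. No basal library overlapped a central one on that day. STP sums stayed far smaller, from 6.81 to 9.05 on day 6 to 40.4 to 47.8 on day 21. ERD6-like sums were 41.0 to 41.8 in basal and 53.4 to 56.8 in central libraries on day 6. They crossed on day 15, when the basal libraries held 90 and 85.0 and the central ones 67.9, 71.0 and 67.4. Sums are dominated by the few most abundant members and were not tested. From day 12 to day 15, averaged over positions, 55 members rose and 3 fell, against 26.7% and 21.2% of all models. The highest group mean fell on the same day in both positions for 84 members, later in basal spikelets for 30 and earlier for 4. Days of the highest mean were not counted for all tested models, so this split cannot be called particular to the members.

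**Figure D3:**
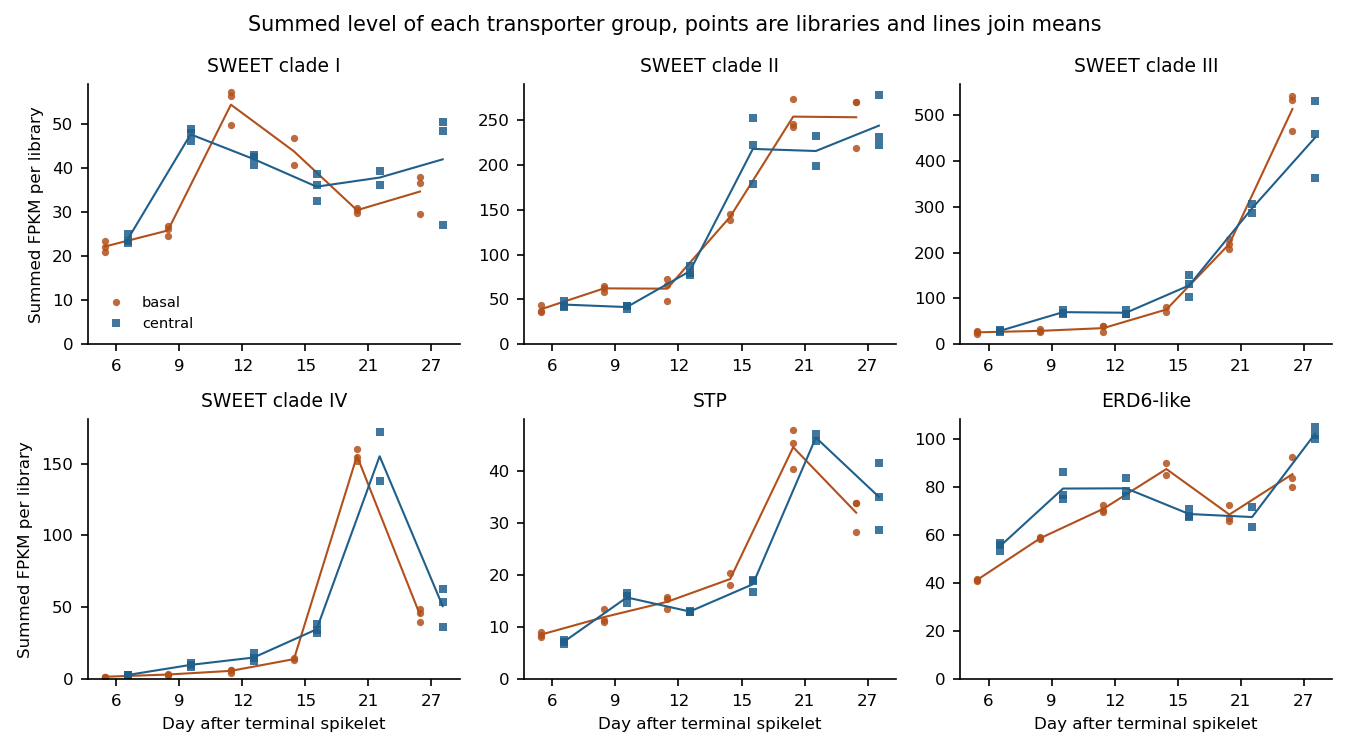
Summed FPKM of the SWEET clades I to IV, of STP and of ERD6-like members in each of the 34 libraries (vertical axis) by day after the terminal spikelet stage, shown equally spaced (horizontal axis), with basal and central libraries in separate colours. Clade III and IV sums are lower in all basal than in all central libraries on days 9, 12 and 15, and the highest group mean of clade I is that of day 12 in basal and of day 9 in central libraries.

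In clade I (13 members), SWEET1a was the most abundant and moved in both directions. The copy TraesCS3A03G0954300 (chromosome 3A, 653505269 to 653508321, reverse strand) had FPKM of 10.8, 8.57 and 10.8 in basal and 25.2, 24.8 and 24.0 in central libraries on day 9. On day 12 the order was turned, with 26.4, 30.1 and 30.0 in basal and 21.4, 21.4 and 18.1 in central libraries. The positions did not overlap on either day. The log2 difference was -1.29 ± 0.13 (SE) on day 9, adjusted p = 1.01e-08, then 0.48 ± 0.13 on day 12, adjusted p = 0.00638, and 0.80 ± 0.14 on day 15, adjusted p = 0.000134. The basal level of day 12 and the central level of day 9 differed by 0.20, adjusted p = 0.269, and the basal level of day 9 exceeded the central level of day 6 by 0.44, adjusted p = 0.0173. The 3D copy TraesCS3D03G0888100 was lower by the same test on day 9, at -1.13 ± 0.12, and higher on day 27, at 1.16 ± 0.13, adjusted p = 1.98e-07. Its basal libraries held 6.16, 6.62 and 6.18 on day 27 and its central ones 2.80, 3.27 and 2.94.

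The other clade I genes split by copy. SWEET2a, whose Arabidopsis relative is a root vacuole glucose transporter, was higher in basal spikelets for the 6B copy TraesCS6B03G0449300 (0.51 ± 0.08, adjusted p = 1.55e-05) and lower for the 6A copy TraesCS6A03G0354300 (-0.35 ± 0.08, adjusted p = 0.000873). The 6B copy had basal libraries of 2.62, 2.77 and 2.55 against central ones of 1.17, 0.96 and 1.16 on day 9. SWEET2b on 3A, TraesCS3A03G0654500, was higher in the mean by 1.20 ± 0.34, adjusted p = 0.00578, but lower on day 21 by -1.68 ± 0.34, adjusted p = 0.000666. Its call in the mean was lost without day 9 (0.72, adjusted p = 0.179) and without basal day 15 replicate 1 (0.91, adjusted p = 0.0752), and limma on log2(FPKM + 1) gave 0.0, adjusted p = 0.983. Both SWEET3a copies were lower in basal spikelets. The 1A copy TraesCS1A03G0325800 differed by -1.53 ± 0.25, adjusted p = 1.91e-05. On day 6 it stood at 0.32, 0.38 and 0.75 in basal and at 2.24, 2.17 and 2.18 in central libraries. On day 27 the central libraries were spread, at 2.36, 11.9 and 11.3, with basal ones at 1.85, 1.17 and 2.14, and all central values lay above all basal ones.

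Clade II (34 members) held the most abundant members of all when averaged over the libraries. SWEET4, the hexose transporter of grain filling in maize, had 3 copies on chromosome group 6 whose means over all libraries were 36.4 (6A), 26.5 (6B) and 37.1 FPKM (6D). All 4 SWEET4 members were higher in basal spikelets on day 9. For the 6B copy TraesCS6B03G0730000 (453285665 to 453290381, reverse strand) the basal libraries held 11.5, 18.1 and 18.7 on that day and the central ones 6.41, 5.55 and 3.24, without overlap. The difference was 1.66 ± 0.33, adjusted p = 0.00025, and 0.72 ± 0.14 averaged over the 6 days, adjusted p = 0.000156. The 6A and 6D copies, TraesCS6A03G0600000 and TraesCS6D03G0504200, changed direction repeatedly: they were higher on day 9 (0.71 ± 0.16 and 0.53 ± 0.16), lower on day 15 (-0.63 ± 0.17 and -0.58 ± 0.17) and higher on day 21 (0.53 ± 0.17 and 0.51 ± 0.17). On day 15 the 6A copy stood at 29.8 and 26.7 in basal and at 47.2, 37.1 and 37.1 in central libraries. On day 27 the differences of the 3 copies ran from 0.00 to 0.48, and none was called.

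SWEET6b was the largest gene family, with 25 members, and it carried most of the clade II difference on days 12 and 15. On day 12, 15 of the 25 were lower in basal spikelets and none higher, and on day 15, 13 were lower and none higher. Over all tested models 14.5% were lower on day 12 and 13.8% on day 15. TraesCS2B03G0141200, TraesCSU03G0461800 and TraesCSU03G0461900 reached 1 FPKM in central libraries alone and were each lower on 2 days. The member rule favoured lower calls for these models, so their calls are a description without a test. Of all 25 members, called or not, 12 models lay on chromosome group 2, several of them next to each other: 5 between 30094828 and 30417643 on 2B alone. The split that follows was made after the values were seen and is a description. In 9 of the 12, RNA was nearly confined to days 12 and 15. Their central libraries stood at 0.38 to 5.24 FPKM on day 12 and 1.41 to 8.62 on day 15, and their basal libraries at 0 to 0.14 and 0.18 to 3.61. In all other groups no library of these 9 exceeded 0.2. The remaining 3 models, 1 each on 2A, 2B and 2D, were at 0 or close to it until day 21 and reached 0.66 to 4.26 in basal and 2.14 to 4.1 in central libraries on day 27. Summed over the 12 models, day 12 levels were 0.16 ± 0.026 in basal and 23.3 ± 6.9 in central spikelets (SD, n = 3 each). On day 15 they were 14.4 ± 1.1 (n = 2) and 46.5 ± 5.4 (n = 3).

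Single SWEET6b copies show the pattern most plainly. TraesCS2B03G0118800 (2B, 30296204 to 30298272, forward strand) was listed at 0, 0 and 0.04 FPKM in the basal libraries of day 12 and at 5.24, 3.1 and 4.36 in the central ones. On day 15 the basal libraries had reached 2.36 and 3.61 and the central ones 8.13, 6.35 and 6.95. The groups did not overlap on either day, and the day 15 difference was -1.37 ± 0.29, adjusted p = 0.000622. The basal level of day 15 and the central level of day 12 differed by -0.46, adjusted p = 0.297. In that comparison 3 of the 9 models nearly confined to days 12 and 15 were called, against 20.7% of all tested models. For TraesCS2B03G0118700 and TraesCS2A03G0099400 all basal libraries of day 12 were at 0, and the central level was at least 23.1-fold and at least 18.4-fold higher, with a floor of 12 counts per library. Copies in this cluster are near each other and may share reads, so the levels of single copies are uncertain.

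SWEET6a reached its maximum later, on day 21. The 7D copy TraesCS7D03G1231100 had 14.1, 6.79 and 7.56 FPKM in basal and 17.5 and 13.7 in central libraries on day 21, a range of values that overlapped. On day 15 it was at 0 in both basal libraries and at 1.6, 1.04 and 0.21 in central ones, which is at least 10.5-fold higher in central spikelets. All 4 SWEET6a members were lower in basal spikelets on day 15. The 1D copy TraesCS1D03G0854100, chosen after its values were seen, was already abundant in central spikelets by then, with 10.2, 10.9 and 2.37 against 1.10 and 0.75 in basal ones.

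Clade III (20 members) held the putative sucrose facilitators. In the mean of 6 days, 10 of them were lower in basal spikelets, against 17.5% of all tested models. The calls of the SWEET13 models TraesCS6A03G0966500 and TraesCS6D03G0847600;TraesCS6D03G0847700 did not hold throughout. By the same test they were lost with no filter (adjusted p = 0.0701 and 0.0704) and without day 9 (adjusted p = 0.0636 and 0.0548). Leaving out any of several single libraries also lost them. SWEET11 differed on the earliest days. Summed over its 6 copies, FPKM on day 6 was 1.18 ± 0.24 in basal and 11.9 ± 0.53 in central spikelets (SD, n = 3 each). On day 9 the basal libraries held 5.93, 5.73 and 8.84 and the central ones 57.0, 52.8 and 60.8. There was no overlap between positions on days 6 and 9. All 6 copies were lower on day 9 and 5 of 6 on day 6, against 1 on day 12.

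The 2 chromosome groups of SWEET11 followed different courses. The group 7 copies, chosen after their values were seen, peaked on day 9 in central spikelets at a sum of 43.7 ± 2.1 and fell to 14.4 ± 2.9 on day 12, when the basal sum was 15.7 ± 2.8. The 7A copy TraesCS7A03G0604400 differed by -3.06 ± 0.46 on day 9, adjusted p = 6e-06, and by -0.05 ± 0.42 on day 12, adjusted p = 0.96. Against the central spikelets of day 6, its basal level of day 9 differed by -0.48, adjusted p = 0.519. The group 5 copies rose later. In central spikelets they held 13.2 ± 2.6 on day 9 and 16 ± 1.9 on day 12, and in basal spikelets 1.33 ± 0.22 and 6.40 ± 1.8. TraesCS5B03G0747200 (5B, 476816645 to 476818401, reverse strand) was lower by -1.71 ± 0.25 averaged over the 6 days, adjusted p = 4.09e-06. Its basal libraries held 0.61, 0.53 and 0.85 on day 9 and its central ones 7.67, 5.81 and 8.09. Its basal level of day 9 also lay below the central level of day 6, by -2.12 ± 0.68, adjusted p = 0.023. On days 21 and 27 SWEET11 libraries of 1 group varied widely: the 6-copy sum was 34.9, 91.8 and 8.04 in the basal and 83.6, 119.0 and 39.1 in the central libraries of day 27.

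**Figure D4:**
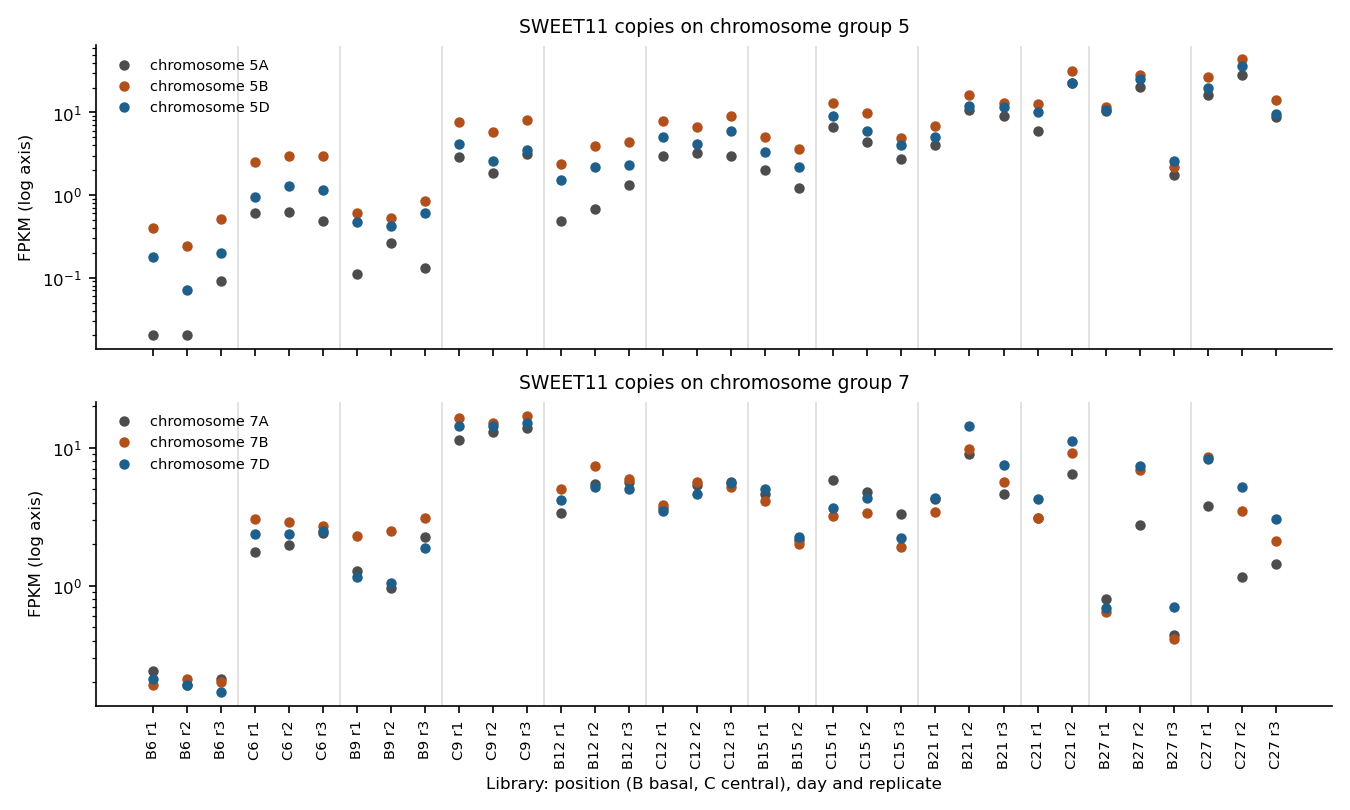
FPKM of the 6 SWEET11 copies (vertical axis, log scale) in each of the 34 libraries (horizontal axis, labelled by position, day and replicate). Separate panels hold the copies on chromosome groups 5 and 7, and colours mark the chromosome of each copy. Central libraries lie above basal ones on days 6 and 9 in all 6 copies, and the libraries of days 21 and 27 spread widely within a group.

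SWEET13, with 9 members on chromosome group 6, became the most abundant SWEET at the end of the series. Its sum was 0.38 to 0.75 FPKM in the libraries of day 6 and 223.8 to 420.9 in those of day 27. All 9 members rose from day 15 to day 21, averaged over positions, against 29.3% of all tested models, and 8 rose again to day 27, against 32.5%. All 9 had their highest group mean on day 27, and some reached 1 FPKM in few libraries, TraesCS6B03G1183600 in 3 basal and 3 central ones. Such members passed the level through late libraries, so the member rule favoured their late rise, and these counts are a description. In basal spikelets 5 members were lower on day 12 and 6 on day 15, and 1 was higher on day 27. The copy TraesCS6B03G1183800 (6B, 701819119 to 701821094, forward strand) stood at 0.41, 0.31 and 0.15 in basal and at 1.21, 1.25 and 1.17 in central libraries on day 12. On day 15 the values were 0.92 and 0.63 against 6.99, 5.28 and 9.02, and on day 27 they were 161, 113 and 156 against 78.3, 109 and 133. The groups were apart on days 12 and 15 and overlapped on day 27. Its differences were -2.05 ± 0.35 on day 12 (adjusted p = 7.42e-05), -3.31 ± 0.31 on day 15 (adjusted p = 5.05e-09), -0.71 ± 0.22 on day 21 (adjusted p = 0.0261) and 0.52 on day 27 (adjusted p = 0.0614). The neighbouring copy TraesCS6B03G1183300 was lower by -0.96 ± 0.13 in the mean, adjusted p = 1.71e-06. The joined model TraesCS6A03G0966400;TraesCS6A03G0966800, which spans 2 annotated genes, was higher on day 9 by 1.88 ± 0.30, adjusted p = 1.46e-05, at 1.19, 0.88 and 0.99 in basal and 0.27, 0.20 and 0.36 in central libraries. It was lower on days 12 and 15.

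SWEET15 and SWEET14 were named after their values were seen. SWEET15 was present in all 34 libraries. The 7B copy TraesCS7B03G0136700 began higher in basal spikelets, with 18.0, 16.2 and 14.2 against 8.52, 7.11 and 8.87 on day 6, a difference of 1.06 ± 0.22, adjusted p = 0.00114. On day 12 it had fallen to 2.80, 3.78 and 3.94 in basal libraries while central ones held 9.58, 7.86 and 9.64, a difference of -1.39 ± 0.23, adjusted p = 6.36e-05. The values of the positions did not overlap on either day. The 7D copy TraesCS7D03G0334100 was likewise higher on day 6 (0.99 ± 0.27, adjusted p = 0.0111) and lower on day 12 (-1.92 ± 0.27, adjusted p = 7.44e-06). The 7A copy TraesCS7A03G0345600 was lower on both, at -1.11 ± 0.25 and -1.39 ± 0.24. SWEET14, a pathogen target in rice, was at 0 in all libraries of days 6 and 9 in both of its members. TraesCS1D03G0116400 reached 4.35, 4.05 and 4.74 in basal and 3.1 and 2.2 in central libraries on day 21.

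Clade IV (9 members) holds SWEET16 and SWEET17, the vacuolar sugar facilitators of Arabidopsis. Its summed FPKM was 3.16 ± 0.19 in basal and 9.87 ± 1.3 in central spikelets on day 9, and 13.9 ± 0.86 against 34.6 ± 3.2 on day 15. By day 21 the sums were 155.3 ± 4.3 and 155.0 ± 24 and no longer apart. Most of the day 21 level came from SWEET16 on 4A, TraesCS4A03G0312600 (215626766 to 215631106, forward strand). It stood at 2.32 and 1.62 in basal and 6.94, 6.61 and 7.93 in central libraries on day 15. On day 21 it was at 105, 109 and 115 in basal and at 124 and 95.4 in central libraries, which overlap. The difference was -1.98 ± 0.25 on day 15 (adjusted p = 1.38e-06), 0.13 on day 21 (adjusted p = 0.713) and, averaged over the 6 days, -1.14 ± 0.11 (adjusted p = 7.1e-09). Its basal level of day 15 and central level of day 12 differed by 0.15, adjusted p = 0.758.

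The SWEET16 copies on chromosome group 5 turned from lower to higher. TraesCS5A03G0099400 (5A, 37697428 to 37701386, forward strand) had 2.17 and 1.84 in basal and 6.38, 5.19 and 6.80 in central libraries on day 15. On day 27 it had 2.53, 2.24 and 3.41 in basal and 0.71, 0.92 and 1.34 in central libraries. The positions did not overlap on either day, with the order turned. The differences were -2.42 ± 0.29 on day 9 (adjusted p = 1.25e-07), 1.01 ± 0.24 on day 21 (adjusted p = 0.00377) and 1.55 ± 0.24 on day 27 (adjusted p = 2.75e-05). TraesCS5D03G0116600 had the steepest turn, from -5.02 ± 0.53 on day 9 (adjusted p = 8.42e-09) to 2.48 ± 0.67 on day 27 (adjusted p = 0.00753), and TraesCS5B03G0106000 went from -2.74 ± 0.43 to 1.76 ± 0.33. All 3 were lower in the mean of 6 days. Those calls were lost without day 9, with adjusted p of 0.154 (5A), 0.158 (5B) and 0.125 (5D), and for 5D also without central day 27 replicate 3 (-1.07, adjusted p = 0.13). The 3 SWEET17 copies did not turn: they were lower in basal spikelets on day 21, and the 5D copy TraesCS5D03G0116800 stood at 0.42, 0.18 and 0.19 in basal and at 2.86 and 1.22 in central libraries, a difference of -2.83 ± 0.52, adjusted p = 0.00114.

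Markers of several tissues differed on the same days as these SWEET members. On day 9, 77 of 85 photosynthesis models and 23 of 33 vascular and secondary wall models were lower in basal spikelets, with none and 1 higher. On day 12 these were 53 and 23 lower, with 1 and 2 higher. In 85 photosynthesis models the summed FPKM was 9667.1 to 10521.5 in basal and 25543.1 to 29718.9 in central libraries on day 15, with 76 models lower and none higher. On day 21 it was 24428.5 to 25897.8 against 19084.3 to 21491.7, with 42 models higher and none lower. In 33 vascular and secondary wall models the sums were 180.9 to 189.5 against 373.2 to 400.8 on day 15, with 26 lower and 2 higher, and 888.5 to 987.1 against 581.1 to 630.9 on day 21, with 21 higher and 1 lower. Of 85 models of dividing cells, 22 were higher and 5 lower on day 9, 45 higher and 1 lower on day 12, and 2 higher and 2 lower on day 15. Their summed FPKM on day 12 was 1382.9 to 1716.5 in basal and 877.2 to 1002.1 in central libraries. Of 29 floral MADS-box models, 16 were lower on day 9, 12 on day 12 and 15 on day 15, with none, 4 and 2 higher. Of 99 anther and tapetum models, 10, 10 and 14 were lower and 2, 9 and 1 higher on these days. Over all tested models, 18.2%, 14.5% and 13.8% were lower and 18.1%, 13.6% and 8.89% higher on days 9, 12 and 15. On day 21 these shares were 6.88% lower and 10.2% higher. The anther and tapetum counts on days 9, 12 and 15 lay near or below the shares of all models. The lists held only models with 1 FPKM or more in at least 2 libraries, so none could be at 0 in every library. Their part in the transporter results was not tested.

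Among the 20 STP members, the copies of STP14, a galactose transporter in Arabidopsis, were lower early in basal spikelets. TraesCS5B03G0481800 (5B, 331499081 to 331502356, forward strand) was at 0.16, 0.14 and 0.16 FPKM in basal and at 2.43, 2.42 and 2.25 in central libraries on day 9. The values were far apart then and overlapped on day 15, at 1.59 and 0.71 against 1.41, 1.33 and 0.98. The difference was -3.95 ± 0.27 on day 9, adjusted p = 2.11e-11, and -1.98 ± 0.22 averaged over the 6 days, adjusted p = 1.73e-07. The copies on 5D (TraesCS5D03G0446300) and 5A (TraesCS5A03G0483300) were lower in the mean as well, at -0.98 ± 0.12 (adjusted p = 1.96e-07) and -0.70 ± 0.11 (adjusted p = 1.5e-05). The central maximum of the 5B copy on day 9 was not reached in basal spikelets on day 12, where the basal level was lower than that maximum by -1.53 ± 0.21, adjusted p = 4.62e-06.

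STP9, which imports hexoses into pollen in Arabidopsis, was higher in basal spikelets. The 2D copy TraesCS2D03G1068100 (582543699 to 582546812, forward strand) was called higher on 5 of 6 days, with a mean difference of 1.01 ± 0.08, adjusted p = 1.03e-10. On day 6 it had 1.97, 1.97 and 1.92 in basal and 0.89, 0.66 and 0.59 in central libraries. On day 21, the day without a call, it had 3.03, 2.46 and 2.30 against 2.83 and 2.82, which overlap. The 2A copy TraesCS2A03G1121100 was higher in the mean by 0.32 ± 0.05 (adjusted p = 2.77e-05) but lower on day 9 by -0.58 ± 0.12 (adjusted p = 0.000498), at 2.29, 2.05 and 1.78 against 3.1, 3.06 and 2.98. A further copy higher in basal spikelets was STP5 on 2B, TraesCS2B03G0880800, at 0.74 ± 0.10, adjusted p = 2.45e-06.

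A second STP5 copy, TraesCS2A03G0797900 (2A, 557586489 to 557591386, forward strand), turned like the group 5 SWEET16 copies. It had 0.45 and 0.38 in basal and 2.51, 3.01 and 2.78 in central libraries on day 15, and 10.6, 9.33 and 11.6 against 5.15 and 5.62 on day 21. On each of these days the positions were apart. The differences were -4.15 ± 0.46 on day 12 (adjusted p = 6.03e-08), -2.86 ± 0.30 on day 15 (adjusted p = 2.81e-08) and 1.10 ± 0.22 on day 21 (adjusted p = 0.000777). Its levels fell below 0.3 in all libraries of day 27. TraesCS2B03G0882300, the corresponding STP5 model on 2B, was lower on day 15 (-2.06 ± 0.49, adjusted p = 0.0019) and higher on day 21 (1.19 ± 0.28, adjusted p = 0.00315).

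STP7 and STP8 held lower members, most of them called late in the series. STP7 on 5A, TraesCS5A03G0579800, was lower in the mean by -1.35 ± 0.30, adjusted p = 0.000806, with 1.82, 1.84 and 2.08 in basal and 2.42, 4.76 and 4.03 in central libraries on day 27. The most abundant STP7 copy, TraesCS5D03G0543500, was instead lower early, by -0.78 ± 0.17 on day 6 (adjusted p = 0.00192) and -0.48 ± 0.16 on day 9 (adjusted p = 0.0189). On day 21 it reached 6.02 to 7.92, with a difference of 0.07 (adjusted p = 0.84), and on day 27 the difference was 0.28 (adjusted p = 0.184). Its difference averaged over the days was -0.24 ± 0.07, adjusted p = 0.00551, a call lost without day 9 (adjusted p = 0.0636). Both STP8 members had RNA mainly on day 21 in central spikelets. TraesCS1A03G0842000 stood there at 1.51 and 1.14 against 0.15, 0.12 and 0.08 in basal libraries, a difference of -3.32 ± 0.45. Both STP8 members reached 1 FPKM only in 2 central libraries, so they became members through the values that set the positions apart. The difference is therefore a description without a test. On the other days no library of TraesCS1A03G0842000 exceeded 0.1.

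The ERD6-like family held 14 ERD6-like 4 members and 3 of ERD6-like 16. Its abundant members differed by small amounts with low error. On chromosome group 1, the joined 1A model TraesCS1A03G1020300LC;TraesCS1A03G1020700 was lower by -0.25 ± 0.03 in the mean (adjusted p = 1.93e-06), TraesCS1B03G1203400 by -0.25 ± 0.03 (adjusted p = 1.28e-06) and TraesCS1D03G0981000 by -0.21 ± 0.03 (adjusted p = 1.04e-05). The 1D copy (482102802 to 482107987, reverse strand) was the most abundant ERD6-like member, at 14.5, 14.8 and 15.9 FPKM in basal and 22.2, 22.3 and 24.4 in central libraries on day 9. On day 15 the order was turned, at 24.8 and 24.4 against 17.9, 17.7 and 16.3. The groups were apart on both days, and the day 15 difference was 0.39 ± 0.08, adjusted p = 0.000809. The 1B copy was also higher on day 15, by 0.32 ± 0.09.

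Low members of the family showed the larger folds. TraesCS4B03G0883200 (4B, 632104265 to 632112385, forward strand) was higher in basal spikelets on the first 5 days and lower on the last. On day 9 its basal libraries held 2.55, 2.07 and 2.17 and its central ones 0.15, 0.16 and 0.14, a difference of 3.89 ± 0.24, adjusted p = 7.32e-13. On day 27 they held 1.38, 1.18 and 1.83 against 2.80, 2.87 and 3.38, a difference of -0.95 ± 0.18, adjusted p = 0.000235. Neither day had an overlap between positions. TraesCS1B03G1175500 (1B, 666914096 to 666918231, forward strand) ran the other way: it was at 0.07, 0.06 and 0.05 in basal and at 1.02, 0.92 and 0.96 in central libraries on day 9, a difference of -3.93 ± 0.33, adjusted p = 8.57e-11. On day 21 it had 8.63, 8.12 and 9.40 against 5.11 and 4.50, a difference of 1.0 ± 0.18, adjusted p = 0.000309. The 4D copy TraesCS4D03G0781400 differed most on day 27, at 0.53, 0.50 and 0.44 in basal and 1.92, 1.67 and 2.39 in central libraries, by -1.92 ± 0.17, adjusted p = 1.44e-09. The 5A copy TraesCS5A03G1195900 was lower by -0.68 ± 0.10 in the mean, adjusted p = 4.69e-06.

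The 3 ERD6-like 16 copies on chromosome group 5, named after their values were seen, were a day 27 group. No library before day 27 exceeded a sum of 0.03 over the copies. On day 27 the sum was 4.73, 8.20 and 9.75 in basal and 9.11, 8.09 and 7.90 in central libraries, which overlap, and no copy was called between positions on that day. The copies reached 1 FPKM only in libraries of day 27, so the rise of all 3 from day 21 to day 27 was set by the member rule. Over all tested models, 32.5% rose in that step, averaged over positions. UDP-sugar transporters carry nucleotide sugars into the Golgi and the endoplasmic reticulum. Of the 5 members, 1 was higher and 2 were lower on day 9, against 18.1% and 18.2% of all tested models. TraesCS7B03G0152900 differed by -1.04 ± 0.13 on day 9, adjusted p = 2.34e-07, at 2.76, 3.22 and 3.60 in basal and 6.44, 6.30 and 7.03 in central libraries. By day 27 it was higher in basal spikelets, by 0.57 ± 0.14, adjusted p = 0.00505.

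**Figure D5:**
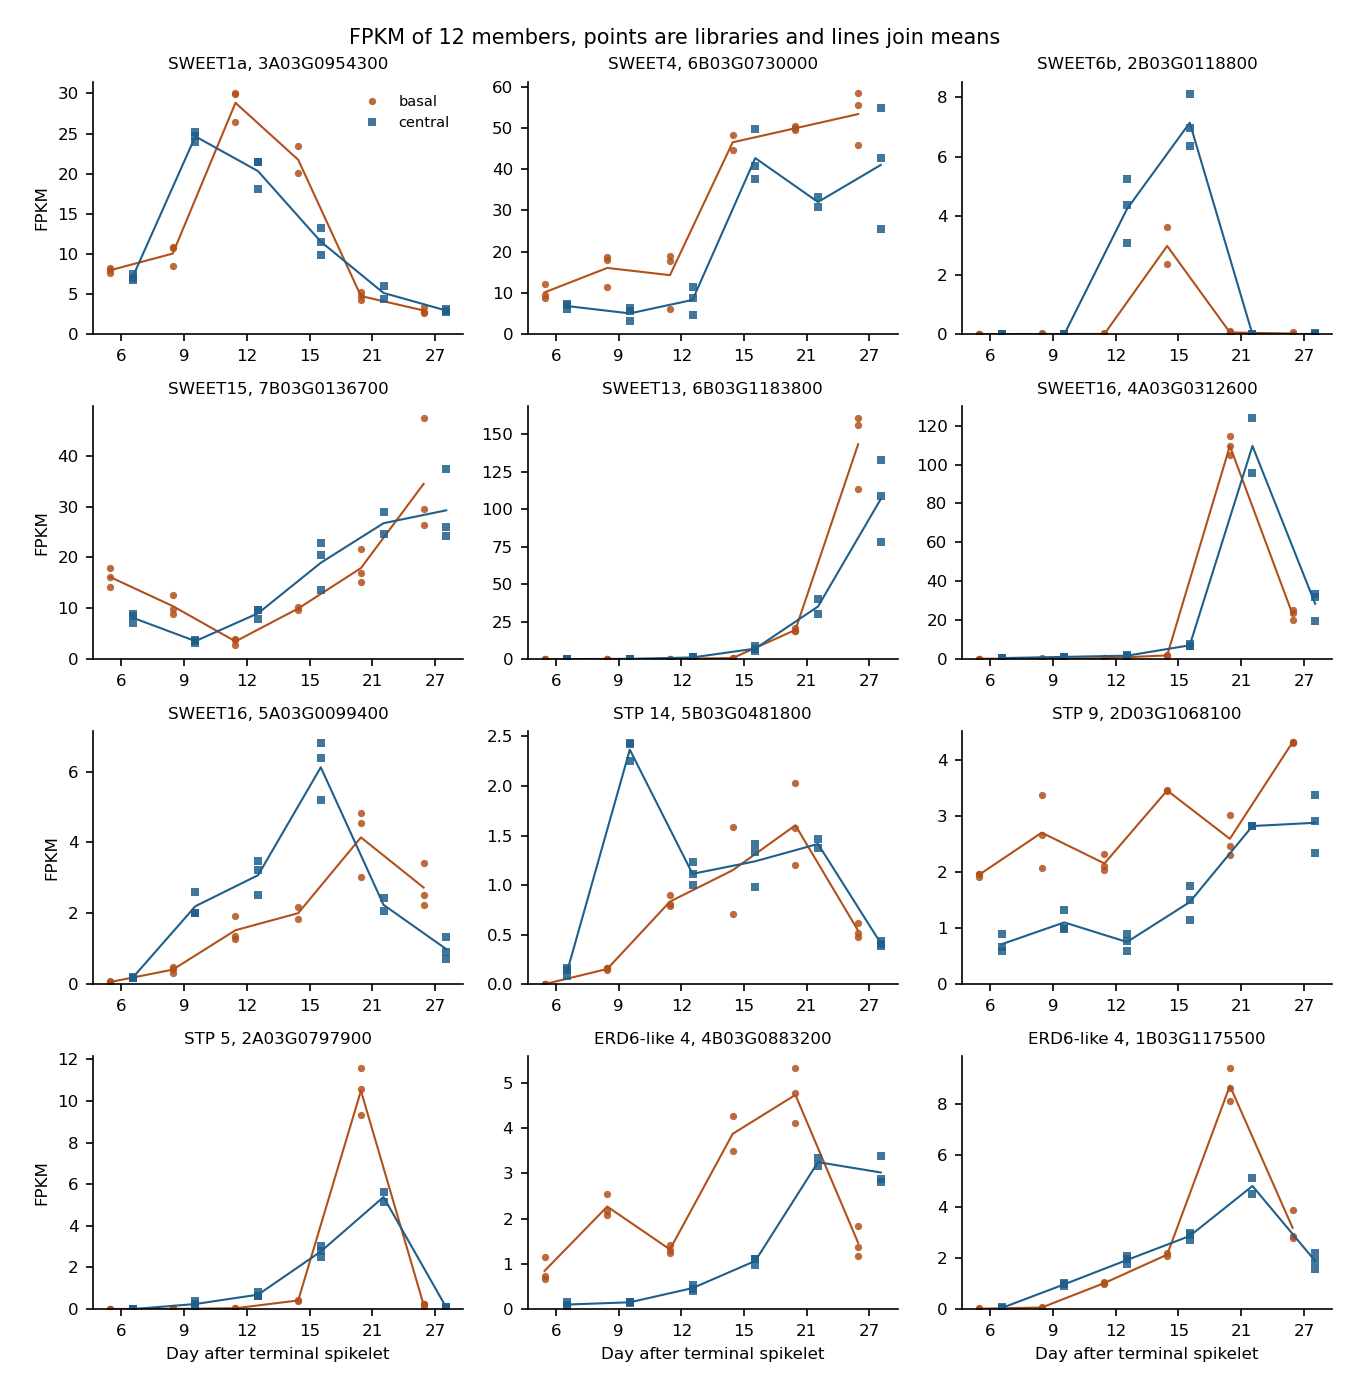
FPKM of 12 members in each library (vertical axes, separate scales) by day after the terminal spikelet stage, shown equally spaced (horizontal axes), with basal and central libraries in separate colours and lines through the group means. The single SWEET1a and SWEET6b copies shown rise 1 sampling day later in basal than in central libraries, and SWEET13 and SWEET16 on 4A rise late. SWEET16 on 5A is highest on day 15 in central and on day 21 in basal libraries, and STP9 on 2D lies higher in basal libraries on most days.

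Basal spikelets were also set against central spikelets of the sampling day before, which asks how far the members differ when basal tissue is given 1 more interval. Same-day and earlier-day comparisons share the basal libraries, so their counts are given side by side and no overlap between them is drawn. Basal day 9 against central day 6 gave 16 members higher and 7 lower, with 13.2% and 10.8% of all tested models, and the 7 lower became 2 to 4 without any of 5 single libraries (each of central day 6, and basal day 9 replicates 1 and 3). Basal day 12 against central day 9 gave 16 higher and 18 lower, with 15% and 10.7%, and basal day 15 against central day 12 gave 11 higher and 4 lower, with 12.4% and 8.28%. The same basal groups had 30, 41 and 40 lower members against central spikelets of their own day. For SWEET members the lower counts were 5, 8 and 4 against the earlier central day and 14, 32 and 35 against the same day. Without basal day 12 replicate 1 the 18 lower members were 11, without central day 6 replicate 2 the 16 higher members of basal day 9 were 10, and the 4 lower members of basal day 15 became 0 to 2 without single libraries.

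Bread wheat carries 3 subgenomes, and members were grouped into 27 sets of 2 or more copies by family name and chromosome group. In 6 sets all copies were called in 1 direction in the mean of 6 days: SWEET11 on group 5, SWEET11 on group 7, SWEET16 on group 5, SWEET3a, STP14 and STP9. In 3 sets copies were called in both directions, namely SWEET2a, STP5 on group 2 and ERD6-like 4 on group 4, and in 7 sets no copy was called. In the last 2 of these mixed sets a single copy was lower, and its call did not hold throughout. TraesCS4D03G0781400 (-0.16, adjusted p = 0.0362) had -0.05 on log2(FPKM + 1) with limma, adjusted p = 0.363, and lost its call with no filter (adjusted p = 0.0871) and without any of 10 single libraries. TraesCS2B03G0882300 (-2.62, adjusted p = 0.0414) had 0.01 with limma, adjusted p = 0.924, and lost its call with no filter (adjusted p = 0.0839), without day 9 (adjusted p = 0.103) and without any of 6 single libraries. Reads shared between near-identical copies may tie or split their values.

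Other genes of sugar transport and use were counted for the mean of 6 days. Of 187 such models, 16 were higher and 73 lower in basal spikelets, together 47.6%, beside the 33.5% of all tested models. Sucrose transporters, which load and retrieve sucrose with protons, had 7 of 10 lower and none higher. Invertases, which split sucrose into the hexoses that STP proteins import, had 24 of 41 lower and 1 higher. That list also took in models joined with fructan enzymes, among them the one with its smallest adjusted p, TraesCS6A03G0050900;TraesCS6A03G0051100 (-0.95 ± 0.09, adjusted p = 5.38e-09), described as a sucrose:sucrose 1-fructosyltransferase, which makes fructan, and as an acid invertase precursor. Its FPKM averaged over all libraries of a position went the other way, at 8.75 in basal and 6.52 in central spikelets. Hexokinases, which phosphorylate imported glucose, had 8 of 23 lower and 4 higher, and their smallest adjusted p was that of hexokinase-6 on 3A, TraesCS3A03G0697500 (-0.67 ± 0.07, adjusted p = 1.13e-08). Tonoplast sugar transporters, which fill the vacuole, had 6 of 8 lower, led by TraesCS1D03G0518700 (-0.22 ± 0.03, adjusted p = 1.49e-07). Sucrose synthases had 6 of 14 lower and 3 higher, and fructokinases, whose wording also took in 29 phosphofructokinases, had 13 of 50 lower and 8 higher. Polyol and inositol transporters had 7 of 28 lower and 2 higher, among them inositol transporter 2 on 2D, TraesCS2D03G0582100 (0.49 ± 0.06, adjusted p = 7.58e-07). Plastid transporters had 1 of 13 lower, TraesCS3A03G0074000 (-0.15 ± 0.03, adjusted p = 0.000547), and invertase inhibitors 1 of 3, TraesCS2A03G1071100 (-1.77 ± 0.33, adjusted p = 9.53e-05). Without basal day 15 replicate 1 the 16 higher models were 10.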

How the data were processed

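The deposited table gave each library, per the file headers, a column of whole-number counts per gene model, treated here as estimated counts, and a column of FPKM, which the authors had scaled for transcript length and library total. The submitters' processing notes name Bowtie 0.12.2 and the mouse builds mm8 and mm9, which cannot be the genome of these values. For the wheat build, the aligner, the counting tool and the strand setting, the sources used here gave nothing. Coordinates are those of the table, and of the 113 placed members, 110 lay on a protein-coding gene in the RefSeq v2.1 annotation of Chinese Spring, against 10 after a shift of 5 Mb. Small estimated counts lay at multiples of 4 in 33.9 to 35.6% of cases per library, against 25% if spread evenly, so a group at 0 was given a floor of 12 counts in each library (3 fragments worth 4 counts), which covers counting error only.

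Models were kept when 2 or more libraries reached 1 FPKM, which left 71963. After TMM scaling, their counts entered a quasi-likelihood fit of 12 group means (edgeR 4.0.16 under R 4.3.3, bias-adjusted dispersions). Contrasts were basal minus central per day and in the mean of 6 days, steps between days, basal against central of the day before, and an F test of change over days. P-values were adjusted by Benjamini and Hochberg over all tested models. The SE of a log2 difference is approximate, derived from its test statistic. The design had assumed FPKM with limma and counts with edgeR if present. Scripts were tested on simulated data.

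Members and lists were chosen with earlier results of these data known. Named were, per family, up to 4 members higher and 4 lower with the smallest adjusted p in the mean, the largest called difference of each day, the 3 most abundant, the smallest p of change over days, and their copies, and for each pathway list the smallest p. Alternatives were RLE and upper-quartile scaling, DESeq2 1.42.0, limma 3.58.1 on log2(FPKM + 1) and log2(FPKM + 0.1), other filters, a replicate block, fits without day 9 or of single days, and leaving out each library. No sequences are shown.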

Additional observations from a re-analysis of the deposited data

Results flagged for a closer look

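Listed here are named members whose basal minus central difference changed over the 6 days, by an F test over 5 contrasts in edgeR's quasi-likelihood fit with Benjamini-Hochberg adjustment over all models. Each p is that of the change, and the days are those on which the member was called higher or lower in basal spikelets. The test called 72 of 118 members, against 56.7% of all models. No explanation was tested.

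Of SWEET1a, TraesCS3A03G0954300 (adjusted p = 2.11e-08) was higher on days 12 and 15 and lower on day 9. TraesCS3D03G0888100 (adjusted p = 3.11e-09) was higher on days 12 and 27 and lower on day 9. Of SWEET2a, TraesCS6A03G0354300 (adjusted p = 0.00506) was lower on days 12 and 15. TraesCS6B03G0449300 (adjusted p = 0.00248) was higher on days 9 and 21. TraesCS6D03G0308500 (adjusted p = 0.0231) was higher on day 9 and lower on day 27. Of SWEET2b, TraesCS3A03G0654500 (adjusted p = 1.36e-05) was higher on days 9 and 12 and lower on day 21. Of SWEET4, TraesCS6A03G0600000 (adjusted p = 0.000262) and TraesCS6D03G0504200 (adjusted p = 0.00127) were higher on days 9 and 21 and lower on day 15. Of SWEET6a, TraesCS7A03G1298900 (adjusted p = 0.00232) and TraesCS7B03G1216700 (adjusted p = 0.0321) were lower on day 15. TraesCS7D03G1231100 (adjusted p = 0.00102) was lower on days 6 and 15. Of SWEET6b, TraesCS2A03G0082000 (adjusted p = 0.00333), TraesCS2A03G0099400 (adjusted p = 0.00416), TraesCS2B03G0118700 (adjusted p = 0.0167), TraesCS2B03G0118800 (adjusted p = 3.24e-07), TraesCS2B03G0118900 (adjusted p = 0.0101), TraesCS2B03G0119100 (adjusted p = 0.000109) and TraesCS2D03G0077100 (adjusted p = 3.6e-05) were lower on days 12 and 15. TraesCS2D03G0076900 (adjusted p = 0.0331) was lower on day 12.

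Of SWEET11, TraesCS5B03G0747200 (adjusted p = 0.0474) was lower on days 6 and 9. Of SWEET13, TraesCS6A03G0966400 joined with TraesCS6A03G0966800 (adjusted p = 2.74e-06) was higher on day 9 and lower on days 12 and 15. TraesCS6A03G0966500 (adjusted p = 0.000282) was lower on day 15. TraesCS6B03G1183300 (adjusted p = 1.04e-08) was lower on days 9, 12 and 15. TraesCS6B03G1183800 (adjusted p = 2.13e-08) was lower on days 12, 15 and 21. TraesCS6D03G0847200 (adjusted p = 2.21e-05) and TraesCS6D03G0847600 joined with TraesCS6D03G0847700 (adjusted p = 0.000337) were lower on days 12 and 15. Of SWEET16, TraesCS4A03G0312600 (adjusted p = 3.86e-06) was lower on days 9, 12 and 15. TraesCS4D03G0420200 (adjusted p = 5.29e-05) was lower on days 12 and 15. TraesCS5A03G0099400 (adjusted p = 1.5e-09) was higher on days 21 and 27 and lower on days 9, 12 and 15. TraesCS5B03G0106000 (adjusted p = 2.84e-07) and TraesCS5D03G0116600 (adjusted p = 3.02e-08) were higher on day 27 and lower on days 9, 12 and 15.

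The sugar transport protein genes come next. Of sugar transport protein 5, TraesCS1D03G0147200 (adjusted p = 0.00577) was higher on day 6. TraesCS2A03G0795600 (adjusted p = 0.00244) was higher on days 9, 12 and 15 and lower on day 27. TraesCS2A03G0797900 (adjusted p = 1.49e-10) and TraesCS2B03G0882300 (adjusted p = 1.06e-05) were higher on day 21 and lower on days 9, 12 and 15. Of sugar transport protein 7, TraesCS5A03G0579700 (adjusted p = 0.000415) was higher on day 9 and lower on day 15. TraesCS5D03G0543500 (adjusted p = 0.00338) was lower on days 6 and 9. Of sugar transport protein 9, TraesCS2A03G1121100 (adjusted p = 2.75e-07) was higher on days 6, 12 and 27 and lower on day 9. TraesCS2D03G1068100 (adjusted p = 0.000197) was higher on days 6, 9, 12, 15 and 27. Of sugar transport protein 14, TraesCS5A03G0483300 (adjusted p = 8.84e-05) was lower on day 9. TraesCS5B03G0481800 (adjusted p = 2.4e-09) was lower on days 6 and 9. TraesCS5D03G0446300 (adjusted p = 0.000123) was lower on days 6, 9, 12 and 27.

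The ERD6-like and UDP-sugar transporter genes close the list. Of ERD6-like 4, TraesCS1A03G1020300LC joined with TraesCS1A03G1020700 (adjusted p = 3.08e-05) and TraesCS1A03G1020400LC (adjusted p = 0.0101) were lower on days 6, 9 and 12. TraesCS1B03G1175500 (adjusted p = 1.01e-10) was higher on days 21 and 27 and lower on days 9, 12 and 15. TraesCS1B03G1203400 (adjusted p = 2.08e-06) was higher on day 15 and lower on days 6, 9, 12 and 21. TraesCS1D03G0958100 (adjusted p = 5.11e-06) was lower on days 9, 12 and 15. TraesCS1D03G0981000 (adjusted p = 1.74e-06) was higher on day 15 and lower on days 6, 9, 21 and 27. TraesCS3A03G0730200LC (adjusted p = 0.000417) was higher on days 9, 12 and 27 and lower on day 21. TraesCS4B03G0883200 (adjusted p = 1.04e-11) was higher on days 6, 9, 12, 15 and 21 and lower on day 27. TraesCS4B03G0883500 (adjusted p = 7.77e-06) was higher on days 12, 15 and 21. TraesCS4D03G0781400 (adjusted p = 7.05e-09) was higher on days 15 and 21 and lower on day 27. TraesCS5A03G1195900 (adjusted p = 4.69e-05) was lower on days 9, 12 and 27. Of UDP-sugar transporter, TraesCS7B03G0152900 (adjusted p = 2.83e-06) was higher on day 27 and lower on day 9.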

How the results depend on the processing

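Counts of members called in the mean of 6 days rested on the scale: 37 lower became 61 on log2(FPKM + 1) and 66 on log2(FPKM + 0.1) with limma, with 22 lower SWEET members becoming 42 and 43, 6 lower STP members 11 and 12, and 4 higher SWEET members 2 on the first scale. On the same 2 scales, lower members numbered 21 and 18 on day 27, 7 and 7 from day 12 to day 15, and 11 and 7 for basal day 15 against central day 12. The first gave 21 lower on day 21 and 4 lower for basal day 9 against central day 6, and the second 7 higher on day 21 and 10 higher pathway genes. DESeq2 gave 30 lower on day 6, 25 on day 15, 4 on day 21 and 2 for basal day 15 against central day 12. With no filter there were 4 lower for basal day 9 against central day 6 and 10 higher pathway genes. Fitting day 27 alone gave 3 higher and 4 lower there. The causes were not tested. Leaving out 1 library at a time moved the higher members to 5 to 12 on day 15, 5 to 11 on day 21 and 10 to 17 for basal day 9 against central day 6. It moved the lower members to 6 to 16 on day 21, 2 to 7 for basal day 9 against central day 6, 11 to 20 for basal day 12 against central day 9 and 0 to 4 for basal day 15 against central day 12. Higher SWEET members ran from 2 to 4 and higher pathway genes from 10 to 17. The lowest counts came without basal day 15 replicate 1 for day 15, SWEET and pathway genes, without central day 21 replicate 1 for day 21, without central day 6 replicate 2 for basal day 9 against central day 6, without basal day 12 replicate 1 for basal day 12 against central day 9, and without basal day 15 replicate 1 or central day 12 replicate 1 for basal day 15 against central day 12. The lower counts of day 12 (34 to 45) and day 15 (27 to 43) kept within 1.5 times under each left-out library. Among 83 named genes, the side of the threshold and the direction in the mean of 6 days were unchanged in 83 with RLE size factors and in 76 with DESeq2, where 7 gained a call. Without day 9, 11 lost their call and 3 gained one. On log2(FPKM + 1) and log2(FPKM + 0.1) the direction turned for 4 and 3 genes: TraesCS2B03G0882300 went from -2.62 to 0.01 on the first, TraesCS5D03G0544100 from 0.38 to -0.2 and -0.37, TraesCS2B03G0118800 from 0.26 to -0.55 and -0.93, and TraesCS2D03G0077100 from 0.03 to -0.6 and -0.92. The cause was not tested. Same-numbered basal and central libraries correlated at -0.11 to 0.126 in their deviations from the group means, so the numbers were not taken as pairs. With the replicate number as a block, 38 members were lower and 11 higher, and no named gene changed its call.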
